A study of Mus musculus with 7 samples.

Results

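The MyoD peaks described here are the weakest of the authors' list: peaks on chromosomes 1 to 19 that rest on at most 8 sequenced ChIP tags. They number 2254 of 10756 peaks in the whole list, or 21.2% of the 10620 peaks on these chromosomes. The 2254 were selected on their tag count alone, and every value that comes from the same peak call (tags, width, fold enrichment, p and false discovery rate) is given as a description. The lowest tag count in the list was 7, so the set holds 1386 peaks with 7 tags and 868 with 8. Just outside the limit lay 717 peaks with 9 tags and 643 with 10. A further 36 peaks with at most 8 tags lie on chromosome X and are not members.

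The study used primary myoblasts of the mouse, grown from satellite cells, the muscle stem cells, that were sorted from animals of 4 to 6 weeks. No source used here gives the strain. MyoD was mapped by chromatin immunoprecipitation and sequencing (ChIP-seq) in myotubes, the multinucleated fibres that myoblasts form, after 2 days of differentiation (MyoD-2DM, 1 sample). RNA was sequenced from myoblasts in growth medium (RNA-Seq EV-GM, 1 sample) and from myotubes after 48 hours in medium with 5% horse serum (RNA-Seq EV-2DM, 1 sample). Both RNA samples carried an empty vector, delivered as a retroviral construct. The vector is not named for the ChIP sample. The protocol speaks of sequencing in duplicates, but each group has 1 column of values, and no source used here says how they were combined. No comparison below has a replicate check of its own.

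MyoD is a basic helix-loop-helix factor that pairs with E proteins and binds short DNA words of the form CANNTG, called E-boxes, of which CAGCTG and CAGGTG are the forms it is best known for. It opens chromatin at muscle genes and works with Myogenin and Mef2 proteins as myoblasts leave the cell cycle and fuse. In ChIP data it is known to lie at a very large number of places, most of them outside promoters and many far from genes that change.

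The ChIP library had 4049890 unique tags and the control 4371189, per the file headers. RNA depth is unknown, since only FPKM (fragments mapped, scaled to transcript length and library size) are used. The cells carried the marks of their labels: Myog, Ckm, Myh3, Acta1, Tnnt3 and Des were called higher in myotubes and Pax7 and Myf5 lower in the authors' deposited table, while Myod1, at 895 FPKM in myoblasts and 293 in myotubes, was not called there. Among markers of other cell types the pericyte marker Rgs5 was the highest, at 73.1 FPKM in myoblasts and 7.72 in myotubes, followed by the immune marker Cd68 (11.04 and 2.80) and the endothelial marker Pecam1 (4.62 and 0.213), and the authors' deposited table called all 3 lower. Col1a1 was at 3.56 and 0.752 FPKM, the other markers reached at most 1.56 FPKM, for Myh11, and Dpt and Plin1 were listed at 0 in the authors' deposited table. The second marker of each of the 3 types was thus low. Myh11, for smooth muscle and pericytes, was at 1.56 and 0.449 FPKM. Immune Ptprc was at 0 and 0.0224 FPKM and endothelial Cdh5 at 0.0725 and 0.0523. Whether such cells were present, and what part they have in the falls described below, was not tested. In bulk samples fewer cells of a type and less RNA per cell cannot be told apart.

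A small group of weak peaks sat at the start of a gene, where the DNA next to the summit can be read. Of 6795 tested genes with a promoter entry in RefSeq, a known strand and a locus of their own, 17 had a weak summit between 250 bases before and 50 after the start. The 250 bases before the start of 5 of them follow, 5′ to 3′ on the strand of the gene, with every CANNTG in capitals. They come from the RefSeq promoter table of build GRCm38.p6 and show what letters such starts hold. The first 4 were taken in the order of their FPKM, leaving out 2 genes (Ei24 and Inpp1) whose locus length differed from the RefSeq gene by more than 1000 bp. Arap2 was added after its values were seen.
Nploc4 (chr11:120437701-120437950, minus strand): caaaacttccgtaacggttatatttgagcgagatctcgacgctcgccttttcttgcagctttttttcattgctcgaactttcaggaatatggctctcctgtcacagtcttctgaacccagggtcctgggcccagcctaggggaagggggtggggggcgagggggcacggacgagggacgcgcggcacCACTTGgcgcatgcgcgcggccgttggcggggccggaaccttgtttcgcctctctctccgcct
Magohb (chr6:131293245-131293494, minus strand): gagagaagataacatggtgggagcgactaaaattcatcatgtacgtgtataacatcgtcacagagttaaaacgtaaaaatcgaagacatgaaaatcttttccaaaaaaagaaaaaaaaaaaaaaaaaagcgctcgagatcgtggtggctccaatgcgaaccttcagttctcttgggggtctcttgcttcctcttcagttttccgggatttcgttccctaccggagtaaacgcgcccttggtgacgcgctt
Dnajc21 (chr15:10470517-10470766, minus strand): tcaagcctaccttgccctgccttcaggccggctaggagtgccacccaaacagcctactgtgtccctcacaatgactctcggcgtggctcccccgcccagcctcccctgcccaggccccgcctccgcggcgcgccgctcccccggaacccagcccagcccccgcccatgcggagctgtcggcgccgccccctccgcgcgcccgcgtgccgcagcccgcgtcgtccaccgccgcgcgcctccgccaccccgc
Palm (chr10:79793322-79793571, plus strand): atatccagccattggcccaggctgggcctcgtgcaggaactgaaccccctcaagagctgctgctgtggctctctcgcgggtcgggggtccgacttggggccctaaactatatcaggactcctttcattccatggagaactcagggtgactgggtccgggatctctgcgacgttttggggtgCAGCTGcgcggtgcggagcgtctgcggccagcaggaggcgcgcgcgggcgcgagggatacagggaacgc
Arap2 (chr5:62766178-62766427, minus strand): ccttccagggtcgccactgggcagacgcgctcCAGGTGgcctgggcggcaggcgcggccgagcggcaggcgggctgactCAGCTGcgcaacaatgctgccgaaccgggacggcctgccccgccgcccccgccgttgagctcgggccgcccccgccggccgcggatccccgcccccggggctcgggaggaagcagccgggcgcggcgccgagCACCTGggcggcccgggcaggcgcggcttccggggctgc

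In these windows Palm, which encodes the membrane-associated protein paralemmin, holds CAGCTG with its first base 69 bases before the start. Nploc4, which encodes a cofactor of the p97 segregase, holds CACTTG at 63 bases. Magohb, an exon junction complex gene, and Dnajc21, a J-domain protein gene, hold no CANNTG before the start. Arap2, a GTPase-activating protein gene, holds CAGGTG at 218, CAGCTG at 171 and CACCTG at 39 bases. A match is a description of letters, and a window with none says only that these letters are not in it. The peaks themselves have mm9 coordinates, and their own sequence was not analysed here.

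Weak peaks were narrow. Their median width was 289 bp, with quartiles of 225 and 342 bp and a range of 110 to 599 bp, against medians of 341 bp for peaks with 9 or 10 tags, 473 bp for 11 to 24 tags and 731 bp for 25 or more. The step at the limit was small: the median was 279 bp at 7 tags, 306 bp at 8, 327 bp at 9 and 356 bp at 10. Of the weak peaks 97.9% were at most 400 bp wide, against 30.7% of the 8366 peaks with 9 or more tags. Tags were also spread more thinly in them, at a median of 2.56 tags per 100 bp, against 2.79, 3.31 and 4.60 in the classes of more tags. Together the weak peaks held 16646 tags, which is 8.97% of the tags in all peaks on these chromosomes and 0.411% of the unique tags of the library.

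**Figure D1:**
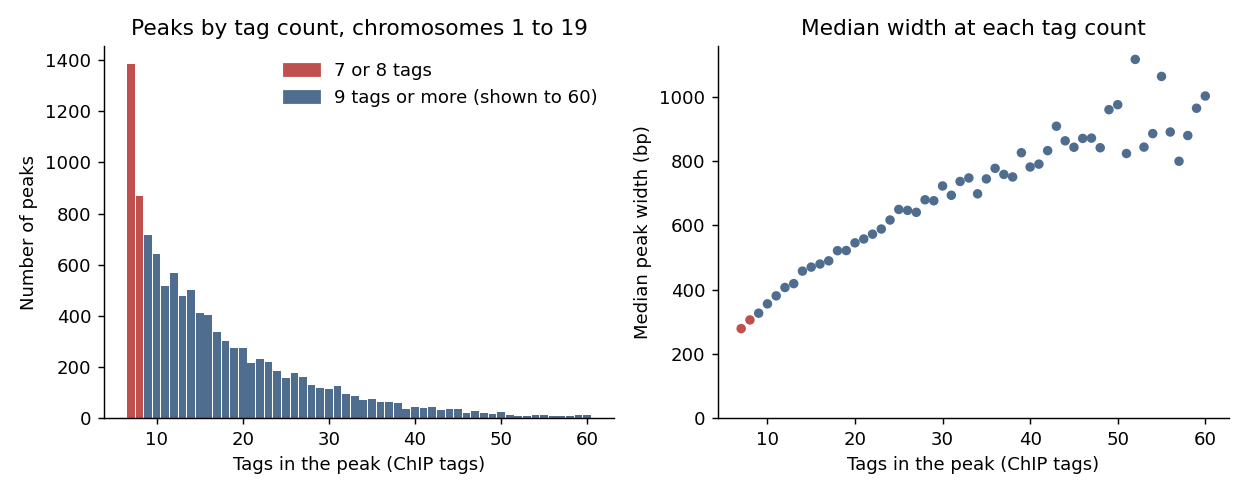
Left, number of peaks (y axis) at each tag count (x axis, ChIP tags, shown up to 60) on chromosomes 1 to 19. Right, median peak width in bp at the same tag counts. Red marks 7 and 8 tags, blue 9 and more. The 1386 peaks with 7 tags form the highest bar, and the median width climbs from 279 bp at 7 tags to 356 bp at 10.

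A count of 7 or 8 carries a wide counting error. The exact Poisson 95% interval is 2.81 to 14.4 tags for a count of 7 and 3.45 to 15.8 for 8. Of the peaks with 9 or more tags, 3833 (45.8%) had a count inside the reach of that upper bound. For a count of 25 the interval is 16.2 to 36.9 tags, above that bound. The tag classes are classes of observed counts in 1 library, without a replicate, and not of sites known to differ in occupancy. A stretch of 289 bp would hold 0.626 unique tags if tags were spread evenly over the effective genome.

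Among the listed peaks, fold enrichment, a ratio the authors' caller made against regional background, ran the other way from tags. Which tags of a peak enter the ratio is not stated in the sources used here. Its median was 17.8 in weak peaks (range 5.71 to 41.0), 17.1 at 9 or 10 tags, 14.4 at 11 to 24 tags and 12.9 at 25 or more. At 7, 8, 9 and 10 tags the highest fold observed was 5.13 times the tag count (35.9, 41.0, 46.2 and 51.3). This is the tag count over 0.195, the unique tags that an even genome-wide spread puts in 90 bp, the caller's length d. Of the weak peaks 18 lay at the ceiling of their own tag count, within 0.02. How many weak peaks below the ceiling also had the even genome-wide background was not counted. A fold of at least 10 was held by 96.5% of the weak peaks, against 80.6% of the peaks with 9 or more tags.

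The p score, which is -10 times the log10 of the authors' p-value, had a median of 60.1 in weak peaks, close to the lowest score in the list, and of 64.4, 70.8 and 100.7 in the other classes. A score of at least 60 was held by 50.1% of weak peaks and 74.5% of the others. The authors' false discovery rate had a median of 18.2% in weak peaks and of 14.5%, 11.7% and 6.18% in the other classes. It was at most 5% for 116 weak peaks (5.15%) and for 1933 of the others (23.1%). Weak peaks thus combined high fold with low p scores and high false discovery rates.

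**Figure D2:**
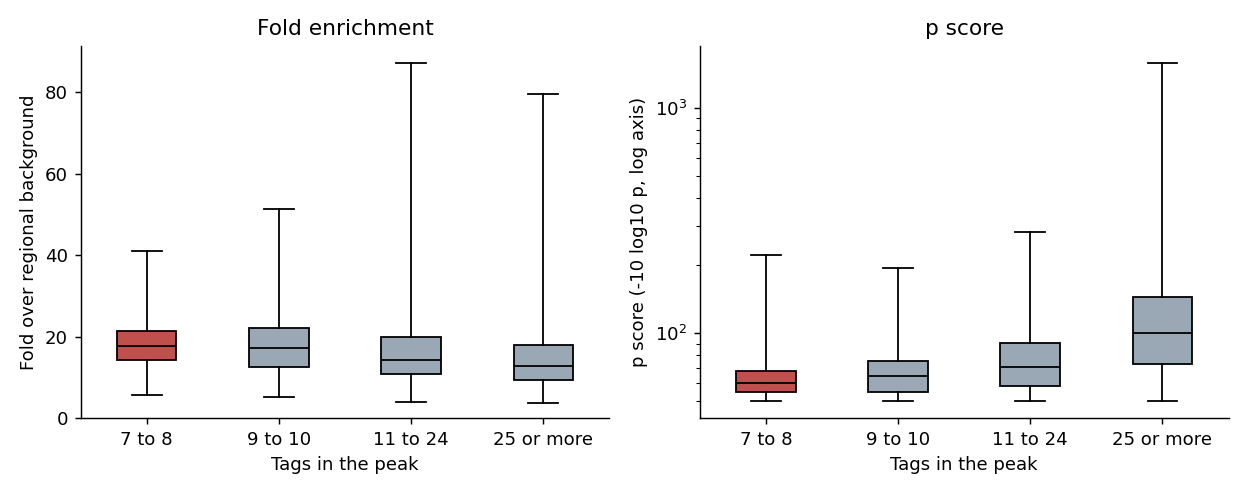
Fold enrichment (left) and p score (right, log axis) by tags in the peak. Boxes span the quartiles, the line is the median and whiskers reach the lowest and highest value, with weak peaks in red. The median fold goes from 17.8 at 7 to 8 tags down to 12.9 at 25 or more, while the median p score goes from 60.1 up to 100.7.

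Single peaks at the ends of these ranges, named by rank, lay at unlike places (mm9 coordinates). The highest fold of a weak peak, 41.0 from 8 tags, was shared by a peak on chromosome 13 from 30334224 to 30334402, inside the locus of Mboat1, a lysophospholipid acyltransferase gene, and a peak on chromosome 2 from 158014657 to 158014794. The latter lay 42554 bp from the nearest tested locus, in a gene listed but not tested. The chromosome 13 peak lay inside the loci of 2 tested genes, of which Mboat1 fell from 12.1 to 1.85 FPKM in the authors' deposited table. Next was a peak on chromosome 16 from 4106686 to 4106806 in the locus of Crebbp, the histone acetyltransferase CBP, with a fold of 39.98. Crebbp was at 10.8 and 6.40 FPKM and not called in the authors' deposited table. The lowest fold, 5.71 from 7 tags, was that of a peak on chromosome 4 from 115559597 to 115559732, 7810 bp from the locus of Mknk1, a kinase of the translation factor eIF4E. That peak lay inside Kncn, a gene listed but not tested. The others of low fold were on chromosome 19 near Smndc1 (5.91) and on chromosome 8 near Lig4 (6.25), 17936 and 200751 bp from those loci. The chromosome 8 peak lay inside n-R5s95, also listed but not tested.

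The widest weak peak, 599 bp on chromosome 16 from 35014045 to 35014643, lay 8164 bp from Ptplb, and the next, 568 bp on the same chromosome, inside the locus of Gbe1, the glycogen branching enzyme. The narrowest, 110 bp on chromosome 7 from 127003123 to 127003232, lay inside the loci of Lyrm1 and a further tested gene, with a p score of 200.4. The next, of 112 bp on chromosome 4, lay 16478 bp from 9130206I24Rik. The 3 weak peaks farthest from a tested locus were all on chromosome 15. A peak from 48421637 to 48421958 lay 2064413 bp from Trps1 and inside Csmd3, an untested gene, and a neighbouring pair lay 1946704 and 1928721 bp from Cdh6. The authors' deposited table listed Trps1 at 4.40 and 1.39 FPKM, called lower, and Cdh6, a cadherin gene, at 6.28 and 2.12 FPKM, not called.

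Weak peaks lay beyond 10 kb from tested genes more often than peaks with more tags. Position was not used in choosing them. It was read from the summit against the loci of the 15068 genes on chromosomes 1 to 19 that the authors tested. Of the weak summits 1087 (48.2%, exact 95% interval 46.1 to 50.3) lay inside such a locus, 222 (9.85%, 8.65 to 11.2) outside but within 10 kb, and 945 (41.9%, 39.9 to 44.0) beyond 10 kb. For peaks with 9 or more tags these shares were 54.8%, 14.8% and 30.5%. The share beyond 10 kb was 11.5 points higher in weak peaks (Newcombe 95% interval 9.20 to 13.7). All intervals of shares and of their differences cover counting error only, and neighbouring peaks are not independent.

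The change was gradual over the tag classes. Beyond 10 kb lay 36.5% of the peaks with 9 or 10 tags, 30.8% of those with 11 to 24 and 25.8% of those with 25 or more. Against the adjoining class of 9 or 10 tags the difference was 5.38 points (2.09 to 8.63), and against 25 or more tags 16.1 points (13.3 to 18.9). The share inside a locus differed from that of 9 or 10 tags by -2.66 points, with an interval that includes 0 (-6.01 to 0.71). The loci cover 28.3% of the span of these chromosomes, or 35.1% with 10 kb on each side. So the 58.1% of weak peaks inside or within 10 kb of a tested locus lay above the share of the span that those loci take up.

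**Figure D3:**
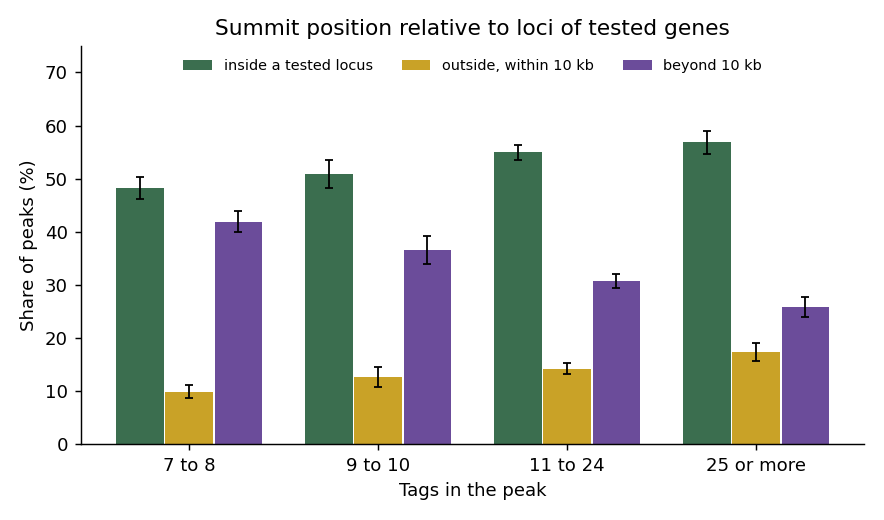
Share of peaks in % (y axis) whose summit lay inside the locus of a tested gene, outside but within 10 kb, or beyond 10 kb, by tags in the peak (x axis). Bars are shares and error bars exact 95% intervals for counting error. The share beyond 10 kb goes from 41.9% at 7 to 8 tags to 25.8% at 25 or more.

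The 945 weak peaks beyond 10 kb had a median distance of 68731 bp to the nearest tested locus, against 70785 bp for the 497 such peaks with 9 or 10 tags and 49133 bp for those with 25 or more. More than 100 kb away were 368 weak peaks (16.3%, 14.8 to 17.9) and 14.8% of the peaks with 9 or 10 tags (12.9 to 16.8), intervals that overlap. The share was 10.8% at 11 to 24 tags and 7.11% at 25 or more. Some of the distant peaks were in genes that the table lists but that were not tested: 213 inside such a gene and 110 within 10 kb of one. The remaining 622, or 27.6% of the weak peaks, lay beyond 10 kb from every listed gene. That share was 24.1%, 21.7% and 19.2% in the classes of 9 to 10, 11 to 24 and 25 or more tags.

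Near gene starts weak peaks were few. Of the 2254, 55 (2.44%, 1.84 to 3.16) had a summit within 1 kb of the start of 1 of the 6795 tested genes whose start could be placed, and 2.35% of peaks with 9 or 10 tags did. The share was 7.86% at 11 to 24 tags (7.12 to 8.65) and 10.6% at 25 or more (9.31 to 11.99), above the interval of the weak peaks.

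Weak peaks also stood alone more often. A peak with 9 or more tags lay within 10 kb of 355 weak summits (15.7%, 14.3 to 17.3), while such a neighbour was found for 22.9%, 25.99% and 39.5% of the peaks in the other 3 classes. The difference from all peaks with 9 or more tags was -13.1 points (-14.9 to -11.3). Within 1 kb, 60 weak peaks (2.66%) had such a neighbour. The median distance from a weak summit to the nearest peak with 9 or more tags was 59065 bp, against 16780 bp for peaks with 25 or more.

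The 1309 weak peaks inside or within 10 kb of a tested locus touched 1779 of the 15068 tested genes. Of these, 1030 also had a peak with 9 or more tags within 10 kb, and 749 genes, in 590 distinct loci, had weak peaks only. Among the 749, 684 had a single weak peak and 65 had 2 or 3. A locus in the table is a merged region, and 37.0% of the 749 genes share theirs with another tested gene, as do 53.9% of the 1030. The genes with weak and stronger peaks have long loci (median 151266 bp, against 51520 bp for weak peaks only and 18346 bp for genes with no peak), and a longer locus has more room for a peak.

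Genes with weak peaks only were expressed like genes with no peak and lower than genes with only stronger peaks. Their median was 16.3 FPKM in myoblasts (quartiles 5.02 and 42.7) and 10.2 in myotubes (2.52 and 31.5). For the 8949 genes with no peak the medians were 16.5 and 10.9 FPKM, and for the 4340 genes with only peaks of 9 or more tags 20.99 and 17.03 FPKM. The median log2 ratio of myotubes to myoblasts, with 1 added to each FPKM, was -0.54 for weak peaks only (95% interval of the median -0.62 to -0.46), -0.43 for no peak (-0.45 to -0.41) and -0.27 for stronger peaks only (-0.31 to -0.24). Over all tested genes it was -0.38. The interval of the genes with weak peaks only lay just below that of the genes with no peak and well below that of stronger peaks only. Split by locus length, as given below, the median was not below that of genes with no peak in every bin.

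Few genes with weak peaks only were called higher in myotubes. The authors' deposited table called 33 of the 749 (4.41%, 3.05 to 6.13) higher, where the share over all tested genes was 6.49%, and 169 (22.6%, 19.6 to 25.7) lower, where it was 17.4%. Calls higher made up 4.28% of genes with no peak and 10.6% of genes with only stronger peaks in the authors' deposited table. The share higher thus differed from that of genes with no peak by 0.13 points, with an interval from -1.20 to 1.89, and from that of stronger peaks only by -6.17 points (-7.74 to -4.24). The share lower was 4.94 points above that of genes with no peak (1.98 to 8.17) and 6.25 above that of stronger peaks only (3.19 to 9.56). The higher share of calls lower against genes with no peak is not firm: after the fold changes were centred on their median it was 2.09 points (-0.17 to 4.72), and with a limit of 10 tags in place of 8 it was 1.91 points (-0.36 to 4.34). Centring moved the calls at these genes from 33 higher and 169 lower to 55 and 93. Genes with an FPKM of 0 in either condition could not be recomputed and were counted as not called after centring.

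Ordered by the strongest peak within 10 kb, the share of genes called higher in the authors' deposited table was 4.41% at 7 to 8 tags, 7.08% at 9 to 10, 7.46% at 11 to 24 and 15.2% at 25 or more. The share called lower was 22.6%, 14.8%, 17.4% and 15.3% in the same order. Between 7 to 8 and 9 to 10 tags the share higher differed by -2.68 points (-5.61 to -0.06) and the share lower by 7.77 points (3.29 to 12.04). Of the 1030 genes with weak and stronger peaks, the authors' deposited table called 103 higher and 170 (16.5%) lower. These shares differed from genes with stronger peaks only by -0.58 points (-2.51 to 1.59) and 0.19 points (-2.23 to 2.81), both with an interval that includes 0.

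**Figure D4:**
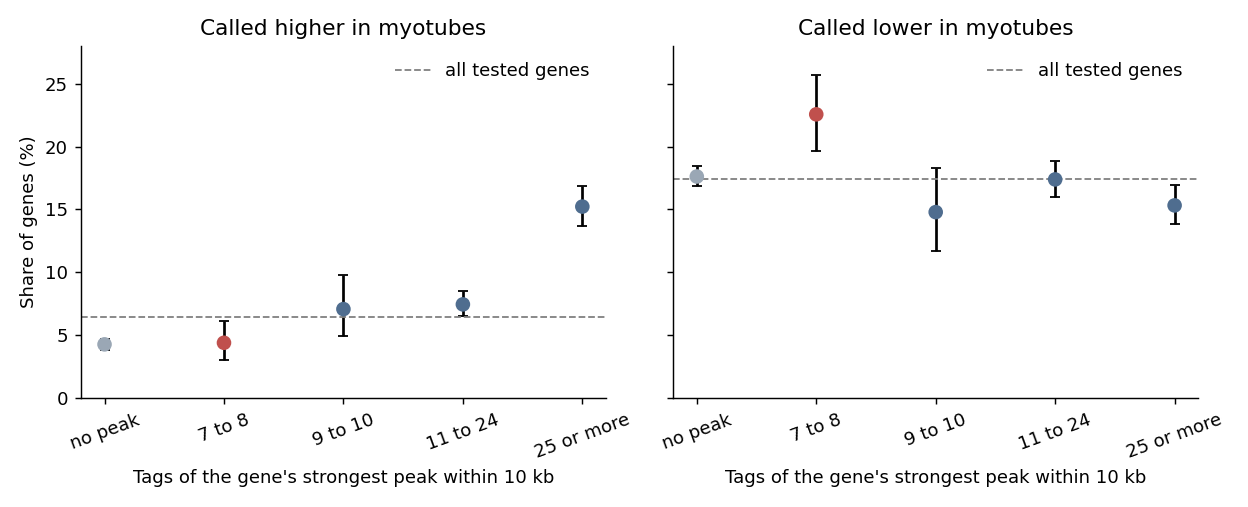
Share of tested genes in % (y axis) that the authors called higher (left) or lower (right) in myotubes, by the tags of the gene's strongest peak within 10 kb (x axis). Points are shares, error bars exact 95% intervals for counting error, the dashed line the share over all tested genes (6.49% and 17.4%). Genes with weak peaks only, in red, sit beside genes with no peak on the left (4.41% and 4.28%) and above every other class on the right (22.6%).

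The lower calls went with long loci. Among genes whose locus exceeds 100 kb, 68 of 215 with weak peaks only (31.6%, 25.5 to 38.3) were called lower, against 22.3% of the 846 with no peak (19.6 to 25.3) and 17.95% of the 1036 with only stronger peaks. The median log2 ratio of these 215 genes was -0.80, against -0.57 with no peak. In loci of up to 10 kb it was -0.45 for weak peaks only and -0.32 for no peak. From 10 to 30 kb the medians were -0.42 and -0.42, and from 30 to 100 kb -0.47 and -0.53. In loci of up to 10 kb, 12 of 100 genes with weak peaks only were called lower and 10.2% of those with no peak. In loci from 10 to 30 kb the shares called lower were 20.4% for weak peaks only and 20.8% for no peak, and in loci from 30 to 100 kb 20.6% and 22.4%. By level, the share called lower at weak peaks only was 25.5% for mean FPKM from 1 to 10, 20.9% from 10 to 50 and 19.4% above 50, against 19.1%, 19.8% and 11.96% with no peak. Of the 431 genes with weak peaks only and an unshared locus of at most 200 kb, 6.03% were called higher and 21.8% lower, against 4.54% and 17.9% with no peak. What part locus length has in the result was not tested beyond these bins.

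**Figure D5:**
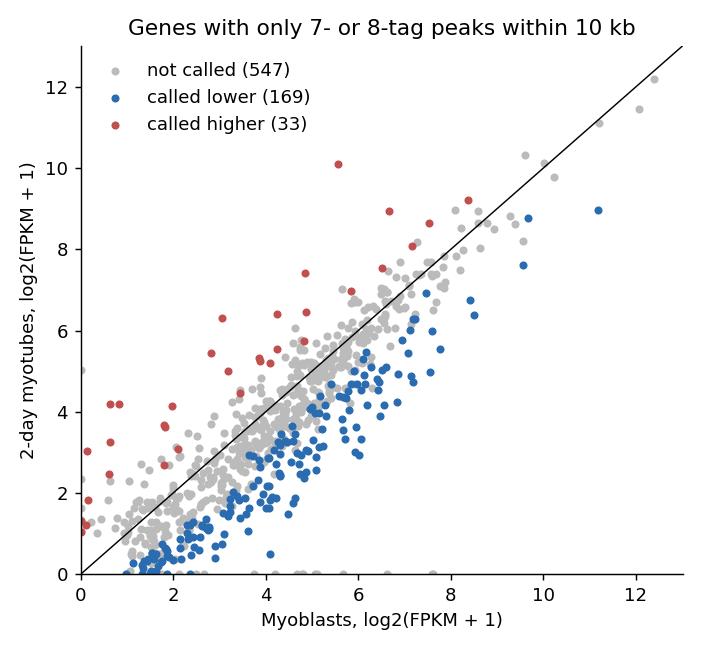
The 749 genes whose every peak within 10 kb has 7 or 8 tags, with log2(FPKM + 1) in myoblasts (x axis) and in 2-day myotubes (y axis). Each point is 1 gene, coloured by the authors' call, and the line marks equal values. The 169 genes called lower (blue) span low and high myoblast levels, and the 33 called higher (red) are fewer.

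A few known muscle genes had weak peaks only. Of 229 tested genes in 13 lists of muscle, cell cycle and matrix genes, 8 (3.49%) had weak peaks only, a share near the 4.97% of all tested genes. A peak with 25 or more tags within 10 kb was found at 38.0% of the listed genes and 13.9% of all tested genes. Sarcomere genes, which build the contractile unit, had 43 of 47 tested members higher and 1 lower by the calls of the authors' deposited table, where 6.49% of all tested genes were higher and 17.4% lower. Of these 47, 2 (Myom2 and Myh7) had weak peaks only, 8 weak and stronger peaks, 26 stronger peaks only and 11 no peak. None of 22 genes of excitation-contraction coupling, 14 of muscle metabolism, 15 myogenic regulators or 10 of the neuromuscular junction had weak peaks only. The same held for 13 of the dystrophin complex, 17 of the satellite cell, 11 MyoD antagonists and 14 of cell cycle exit. It also held for 4 markers of other cell types. In lists this small, 0 is not far from the 4.97% of all tested genes. Of 32 cell cycle genes the authors' deposited table called 30 lower, beside 17.4% of all tested genes, and 3 of these (Aurka, Ccnb2 and Rrm1) had weak peaks only, while 19 had no peak. The remaining listed genes with weak peaks only were Cd9 and Neo1 of the fusion list and Fbn1 of the matrix list.

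Among genes with weak peaks only and a locus of their own, 18 called higher and 62 called lower passed the level filter (larger FPKM at least 10, smaller at least 0.1), and the 10 largest changes each way are named. The rises lay between 3.10-fold and 30.6-fold in the authors' deposited table. All 20 kept their call after centring.

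Sarcomere genes were among the rises. Myom2, which encodes the M-band protein myomesin 2, rose from 46.3 to 1101 FPKM (log2 change 4.57 ± 0.41 SE, authors' deposited table). Its only peak within 10 kb lay inside the locus, on chromosome 8 from 15087171 to 15087514, with 8 tags and 11.99-fold enrichment, and the nearest peak with more tags, of 38, was 61379 bp from the locus. Myh7, the slow myosin heavy chain, rose from 27.96 to 171 FPKM (log2 change 2.62 ± 0.53 SE), and Myh6, the alpha-cardiac chain, from 6.05 to 42.5 (log2 change 2.81 ± 0.59 SE) in the authors' deposited table. These neighbours on chromosome 14 are close in sequence, so that reads could be split between them and their levels are uncertain. Myh6 had a peak of 7 tags inside its locus (chromosome 14 from 55564714 to 55565102), and Myh7 had 1 of 8 tags 7702 bp outside (55621029 to 55621439). The nearest peak with 9 or more tags was far from both, at 608657 and 580950 bp.

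Fstl3, a secreted inhibitor of activin and myostatin, rose from 7.31 to 78.3 FPKM (log2 change 3.42 ± 0.48 SE), and Grb10, an adaptor of the insulin and IGF receptors, from 0.780 to 17.2 (log2 change 4.46 ± 1.19 SE) in the authors' deposited table. The Fstl3 peak, of 8 tags on chromosome 10 from 79256124 to 79256459, lay 2600 bp outside its locus. It is the same peak that sits at the start of Palm, 10 bp before it, whose window with CAGCTG is printed above, and Palm was at 16.2 and 16.9 FPKM and not called in the authors' deposited table. For Grb10 the peak lay inside the locus, with 7 tags and 10.7-fold enrichment.

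Cmbl, which encodes a hydrolase, had the largest rise, from 0.563 to 17.2 FPKM (log2 change 4.94 ± 0.89 SE, authors' deposited table), with 1 peak of 7 tags 2360 bp outside its locus. Rxrg, the retinoid X receptor gamma, rose from 2.95 to 16.6 FPKM and Pmp22, a membrane protein best known from myelin, from 28.3 to 87.6 in the authors' deposited table. Baiap2l2, of the family of membrane-bending I-BAR proteins, was at 2.53 and 11.4 FPKM, called higher in the same authors' deposited table. Of the nearest peaks with 9 or more tags, that of Pmp22 was closest, 13863 bp from the locus with 31 tags, just past the 10 kb limit, followed by that of Fstl3 at 16476 bp with 38 tags.

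Stim1, the calcium sensor of the endoplasmic reticulum, and Rrm1, a subunit of ribonucleotide reductase, had a weak peak in common (chromosome 7 from 109595087 to 109595241, 7 tags, 13.0-fold). It lay inside the Rrm1 locus and 9802 bp outside that of Stim1. Stim1 rose from 8.08 to 30.9 FPKM (log2 change 1.93 ± 0.66 SE) and Rrm1 fell from 85.8 to 22.1 (log2 change -1.95 ± 0.67 SE) in the authors' deposited table, so the genes that count this 1 weak peak moved in opposite directions. Rrm1 lost its call after centring.

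The falls lay between 6.30-fold and 10.2-fold in the authors' deposited table. Aurka, the Aurora A kinase, fell from 64.1 to 6.68 FPKM (log2 change -3.26 ± 0.58 SE), and Ccnb2, cyclin B2, from 60.2 to 7.09 (log2 change -3.08 ± 0.70 SE) in the authors' deposited table. Fam64a, a gene active in mitosis, fell from 66.1 to 9.13 FPKM in the authors' deposited table. Aurka had a weak peak on each side of its locus, 2779 and 6235 bp outside, of 8 and 7 tags. The Ccnb2 peak lay 1964 bp outside (chromosome 9 from 70271242 to 70271407) and had 8 tags at 7.96-fold, and that of Fam64a lay 2977 bp outside with 8 tags at 28.5-fold.

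Selp, which encodes P-selectin, fell from 27.5 to 4.13 FPKM in the authors' deposited table and had a pair of 7-tag peaks inside its locus. Col8a1, a short-chain collagen, fell from 15.8 to 2.12 FPKM, and Igsf11, an adhesion protein gene of the immunoglobulin family, from 17.8 to 2.66 in the authors' deposited table, each with 1 peak of 7 tags inside a locus of over 100 kb. Ccl5, a chemokine, fell from 22.9 to 2.40 FPKM and Zfp36l2, an mRNA decay factor, from 88.3 to 14.01 in the authors' deposited table. Dip2a, at 23.9 and 2.69 FPKM, and 2610002D18Rik, at 11.3 and 1.11, were also called lower in the authors' deposited table. Of all 20 genes the Dip2a peak had the highest fold, 33.6 from 8 tags.

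Of the other listed genes with weak peaks only, Fbn1, the microfibril protein fibrillin 1, fell from 9.91 to 1.62 FPKM (log2 change -2.61 ± 0.67 SE) in the authors' deposited table. Cd9, a tetraspanin linked to cell fusion, fell from 137 to 63.3 FPKM (log2 change -1.12 ± 0.43 SE) there, a call lost after centring. Neo1, the netrin receptor neogenin, was at 19.98 and 12.02 FPKM and not called in the authors' deposited table.

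Some listed genes had weak and stronger peaks. Cacna1s, the voltage sensor of the calcium channel, rose from 26.1 to 411 FPKM in the authors' deposited table and had 1 weak among 5 peaks, the strongest of 33 tags. Ryr1, the calcium release channel, rose from 14.4 to 101 FPKM (1 of 4 peaks, strongest of 67 tags), and Neb, nebulin, from 73.2 to 343 FPKM in the authors' deposited table. Neb had 2 weak among 3 peaks, the strongest of 32 tags. Mef2d, a partner of MyoD, rose from 63.2 to 137 FPKM with 1 weak among 6 peaks, and Capn3, a muscle calpain, from 18.2 to 252 FPKM with 1 of 3 in the authors' deposited table. Myom1, myomesin 1, rose from 7.97 to 95.3 FPKM in the authors' deposited table, with 1 weak of 10. Mef2d, Capn3 and Myom1 share their loci with other tested genes, so their peaks may belong to a neighbour. Acta1, the skeletal muscle actin, and Cdh15, M-cadherin, share a merged locus of 4435365 bp with 14 weak among 93 peaks, so none of these can be tied to either gene.

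At the 17 starts with a weak summit, expression was not of 1 kind. The authors' deposited table called Magohb, Inpp1 and Arap2 lower and 0 of the 17 higher, counts too small to set apart from the 17.4% lower and 6.49% higher over all tested genes. Myoblast levels ran from 1.16 to 107 FPKM.  Magohb, whose summit lay 6 bp before the start, fell from 37.8 to 16.8 FPKM (log2 change -1.17 ± 0.34 SE) in the authors' deposited table, a call lost after centring. Arap2, with its summit 10 bp after the start, fell from 11.5 to 2.09 FPKM (log2 change -2.46 ± 0.76 SE) in the authors' deposited table. Nploc4, at 107 and 143 FPKM, and Dnajc21, at 21.1 and 32.6, were not called in the authors' deposited table, though Dnajc21 was higher after centring, and each also had a peak of 16 tags within 10 kb.

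In windows from 250 bases before to 50 after the start, searched on both strands (CANNTG and CAGCTG read as themselves on the other strand), CANNTG was present at 12 of the 17 starts (70.6%, 44.0 to 89.7). It was present at 181 of 290 starts with a peak of 9 or more tags (62.4%) and at 56.3% of the 6784 starts of tested genes. CAGCTG, 1 form of CANNTG, was present at 5 of 17 (29.4%, 10.3 to 56.0), at 23.8% of starts with a stronger peak (19.01 to 29.1) and at 11.8% of all tested starts. CAGGTG or its reverse complement CACCTG was present at 4 of 17 (23.5%), 15.5% and 13.99%. Over all 31396 windows of the table on chromosomes 1 to 19, the shares were 66.1% for CANNTG, 13.0% for CAGCTG and 17.4% for CAGGTG or CACCTG. With 17 starts the intervals hold both the share at stronger peaks and that of all starts, so no difference was detectable at this number. The 17 include Ei24, Inpp1, Gtf3c3, Cenpj and Zfp759, whose locus length differs from the RefSeq gene by more than 1000 bp. Each of these holds a CANNTG, Ei24 and Cenpj hold CAGCTG, and Zfp759 holds CACCTG. Their windows may not match the start used for the peak, and shares without them were not computed.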

How the data were processed

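Peaks were called by the authors with MACS, per the file headers; version 1.3.7, CASAVA 1.7.0, Cuffdiff and the mm9 build are in the submitters' processing notes. Settings were tag size 36, band width 150, model fold 16 and p-value threshold 1.00e-05, per the file headers. Tags are deposited as counts for each peak. The authors' p score is -10 log10 of the p-value, fold enrichment is a ratio the authors' caller made against regional background, and the false discovery rate is a percent from the authors' caller. No source used here gives the control or the antibody against MyoD, and the MyoD sample is described as taken from an earlier sample. Expression values are FPKM as deposited, 1 per gene and condition, with log2 fold changes, p-values and q-values of the authors' Cuffdiff test, deposited in 2 identical copies of which 1 was used. No source used here gives the aligner, annotation or normalization setting. Genes are called as the authors marked them, with q up to 0.0499. SE is the authors' log2 fold change over their test statistic.

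The members, tag classes and gene lists were chosen with earlier results of these data known. Summits were joined to loci of tested genes within 10 kb, with Python 3.11.15, pandas 2.3.3 and scipy 1.17.1, checked on simulated peaks. Intervals of shares are exact Clopper-Pearson, of differences Newcombe (statsmodels 0.14.6), of medians by order statistics. Log2 ratios had a pseudocount of 1. Centring subtracted the median log2 fold change, -0.41. The p-values were recomputed with the authors' errors and adjusted by Benjamini-Hochberg over the tested genes with an FPKM above 0 in both conditions. The other tested genes stayed in the shares and were counted as not called after centring. Named genes were the 10 largest rises and falls among called genes with weak peaks only, an unshared locus of at most 200 kb, an FPKM of 10 or more in the higher condition and 0.1 or more in the other, and up to 12 list genes by level with weak peaks only or a weak peak in the locus. Neo1 and Fbn1, past that number, are named since the class held 8 listed genes. Of 262 listed genes 3 (Hdac4, Tnnc1 and Zeb1) stand on 2 tested entries and were left out. Promoters were matched by symbol for 9575 of 15068 genes (63.5%), and the gene's start is the end of the locus given by the strand, in mm9, so that windows and peaks come from different builds. The series' 4 ChIP samples of histones were not used here.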

Additional observations from a re-analysis of the deposited data

How the results depend on the processing

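Of 71 values under other settings 51 stayed within the 95% interval of the reported value, 20 did not, and 0 changed sign. Widths, FPKM medians and shares cannot be negative, so a sign could change only in differences and log2 ratios. The share inside a locus does not use the distance, so its values at 5 kb and 50 kb stayed the same by construction. The median width was 279 bp with a limit of 7 tags, 308 bp with 10, and 242 bp for weak peaks with a p score of at least 60. With that p score the share called higher lay 7.76 points below genes with stronger peaks only (-7.76). With a limit of 10 tags the share called lower was 19.5%, and 1.91 points above genes with no peak. At a distance of 5 kb the share beyond a locus was 46.1% and the share near a peak with more tags 8.70%. At 50 kb these were 24.98% and 45.8%, the difference in location was 8.14 points, and the share lower exceeded that of genes with no peak by 2.42 points (-0.16 to 5.19). Against every listed gene 27.6% lay beyond and 58.4% inside, with a difference of 6.13 points, and against unshared loci of at most 200 kb 66.1% and 25.6%. A pseudocount of 0.1 gave a median log2 ratio of -0.64. After centring, 7.34% were called higher and 12.4% lower, and the share higher differed from stronger peaks only by -7.89 points. Other distances, loci and tag limits change which loci, peaks and genes are counted, and the cause of the moves was not tested. Of the called genes with weak peaks only, 2 of 33 higher and 76 of 169 lower had no call after centring. The 2 higher, Il15 and 4732440D04Rik, had 0 FPKM in myoblasts and could not be recomputed. Among the 76 the same holds for St3gal6, Ptn, A230050P20Rik, C920011F04Rik and Gm15512, at 0 FPKM in myotubes. Of 30 named calls checked 28 remained, all but Cd9 and Rrm1. No paired analysis was possible because each group has 1 sample, and no replicate could be left out. A count of 7 or 8 tags limits how well a single weak peak can be told from its neighbours in tag count.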

Other observations

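Chromosome 14 stood apart in its peaks. It held 168 peaks, of which 58 (34.5%, exact 95% interval 27.4 to 42.2) were weak, while the share on the other autosomes ran from 15.6% to 24.2%. It had 0.345 peaks per tested gene, against 0.543 to 1.03 on the others, but its 0.119 weak peaks per tested gene lay within the range of 0.0846 to 0.222 seen on them. The chromosome thus had few peaks with 9 or more tags, not many weak ones. Myh6 and Myh7, which rose with weak peaks only, lie on it, and their nearest peaks with more tags are 608657 and 580950 bp away. What part this has in their class was not tested.

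Weak summits lay closer to a peak's edge than those of stronger peaks, at a median of 31.6% of the width from the nearer edge, against 34.4%, 37.2% and 37.5% in the classes of 9 to 10, 11 to 24 and 25 or more tags. Pparg, the nuclear receptor of fat cell differentiation, was among the 17 genes with a weak summit at the start, 210 bp before it, with 1.69 (myoblasts) and 1.14 FPKM (myotubes), not called in the authors' deposited table.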
